A study of Callithrix jacchus with 54 samples.

Results

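SOX17, PRDM1 (also known as BLIMP1), TFAP2C and NANOS3 are genes of primordial germ cells (PGCs), the embryonic founders of sperm and eggs, in primates. They were picked by symbol as 4 of the 14812 genes with a deposited expression value (gene IDs 100396115, 100401970, 100400638 and 100405226), and all 4 were among the 11197 genes that passed the filter on low values. SOX17 is an HMG-box transcription factor that also acts in endoderm and blood vessels, and in human germ cells it stands near the top of the specification network. PRDM1 is a zinc finger repressor that holds down somatic genes, and TFAP2C is an AP-2 transcription factor with roles in germ cells, amnion and trophoblast. NANOS3 is an RNA-binding protein that early germ cells need to survive. In the primate embryo, cells competent for the germ line have met WNT and activin or NODAL signals, and a BMP signal then starts the germ cell programme.

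Marmoset PGC-like cells (cjPGCLCs) were made from marmoset embryonic stem cells (cjESCs), and polyA RNA was sequenced from 27 conditions with 2 libraries each, 54 libraries in all. Every library derived from the CMES40 cjESC line with a pair of knock-in reporters, tdTomato at BLIMP1 (BT) and eGFP at NANOS3 (NG). The routes BLSE, SOX17 + BLSE and SOX17 + LSE used a derivative of it, a picked clone maintained in DK20FA medium that carried rtTA, tetO-BLIMP1, SOX17-GR and DD-TFAP2C with human coding sequences. Dexamethasone, which acts on the glucocorticoid receptor (GR) part of the SOX17 fusion protein, was the only inducer given, and reads of a transgene cannot be told apart here from those of the marmoset gene. BLSE stands for BMP4, LIF, SCF and EGF, to which a ROCK inhibitor was added, and LSE lacks BMP4. The routes BLSE + IWR1 and BLSE + IWR1 + BMS started from the reporter line without transgenes, maintained in PESFA medium and pre-treated for 24 h with activin A and IM12, a WNT agonist. IWR1 inhibits WNT signalling, and BMS493 (BMS) is an inverse agonist of the retinoic acid receptors. Each route was sampled at 12, 24, 48 and 96 h. BLSE + IWR1 cells were also taken at day 6, and at days 20, 40 and 70 after aggregation with mouse female embryonic gonadal somatic cells cleared of their own germ cells (xenogeneic reconstituted ovaries). Line, starting medium and pre-treatment thus all changed together between the routes with and without transgenes.

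The cells of 12, 24 and 48 h were taken unsorted. At 96 h and later, BT(+) cells were sorted, with the exception of BLSE at 96 h, where all cells were taken. The labels give this sort as tdTomato(+), and the study's text describes these cells as positive for both BT and NG. Since BT is the reporter of PRDM1, a high PRDM1 level in sorted cells is set by the sort and is no separate finding. Nor is a similar PRDM1 level in sorted groups that are compared. The same holds for NANOS3 as far as NG was part of the gate, and the sort cannot be told apart from the passage of time between 48 and 96 h. cjESCs and pre-treated cells were sorted for TRA-1-60 away from mouse feeder cells. Expression was given in TPM (transcripts scaled to a common library total), a unit scaled by transcript length, so levels of different genes can be set side by side. Read depth is unknown from TPM values, and no interval for counting error can be given. Between 10146 and 12688 genes had a value above 0 in a library, log values of the 2 libraries of a condition correlated across genes at 0.977 to 0.994, and no libraries were identical. The study's methods call the 2 samples of a condition biological duplicates. The p-values rest on the spread between duplicates pooled over all 27 conditions, so a gene's discordant pair gets the same standard error as its close ones. In bulk RNA, fewer expressing cells and less RNA per cell cannot be told apart.

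The readout that the labels name for the sort sits at PRDM1, and the second reporter at NANOS3. Both were inserted beside the stop codon with CRISPR guides, which are shown here because they fix where the reporters sit. Each oligonucleotide is written 5′ to 3′, with the 20 guide bases in capitals and the bases ahead of them, which include the cloning overhang, in lower case. Genome positions of the guides were not looked up here.
PRDM1 guide oligo: caccGCAGATCTGATGACTCGTAA
NANOS3 guide oligo: caccgCCAGCTTGAGCTCGATCCCT

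The 4 genes differed widely in how far they ranged over the 27 conditions. NANOS3 went from a mean of 0.58 ± 0.226 TPM (SD, n = 2) in cjESCs in DK20FA to 440.3 ± 65.6 at day 6, a ratio of 759. SOX17 went from 5.03 ± 0.0778 in BLSE + IWR1 at 12 h to 664 ± 39.1 in SOX17 + BLSE at 96 h, a ratio of 132. PRDM1 ranged over a ratio of 21.5, from 11.0 ± 3.23 in BLSE + IWR1 at 48 h to 237 ± 23.1 at day 6. TFAP2C, already high in cjESCs, ranged over 9.44, from 102 ± 7.95 in PESFA to 959 ± 30.9 in SOX17 + BLSE at 96 h.

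In the order of the 27 means, the libraries of neighbouring conditions overlapped for 14 of 26 neighbour pairs in SOX17, 17 in PRDM1, 15 in TFAP2C and 15 in NANOS3. Overlap, here and below, only describes 2 libraries against 2, and the share of all genes without overlap was not computed. Even with no overlap, an exact permutation test of 2 against 2 cannot go below p = 0.33. For PRDM1, TFAP2C and NANOS3 the highest 8 places were held by the 8 conditions sorted for BT at 96 h or later, and for SOX17 the unsorted SOX17 + BLSE cells of 48 h came seventh among them. At the top of the SOX17 order, the libraries of SOX17 + BLSE at 96 h, day 6 and BLSE + IWR1 + BMS at 96 h overlapped from neighbour to neighbour. At the top of the NANOS3 order, those of day 6 and BLSE + IWR1 + BMS at 96 h overlapped, and SOX17 + BLSE at 96 h lay below both. PRDM1 was highest at day 6 with no overlap to day 20, and its next 5 conditions (day 20 and the sorted 96 h cells of the 4 routes) overlapped from neighbour to neighbour. TFAP2C in SOX17 + BLSE at 96 h lay above BLSE + IWR1 + BMS at 96 h, with no overlap. At the low end, PRDM1 overlapped from neighbour to neighbour through 10 conditions, from the pre-treated cells down to BLSE + IWR1 at 24 h.

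**Figure D1:**
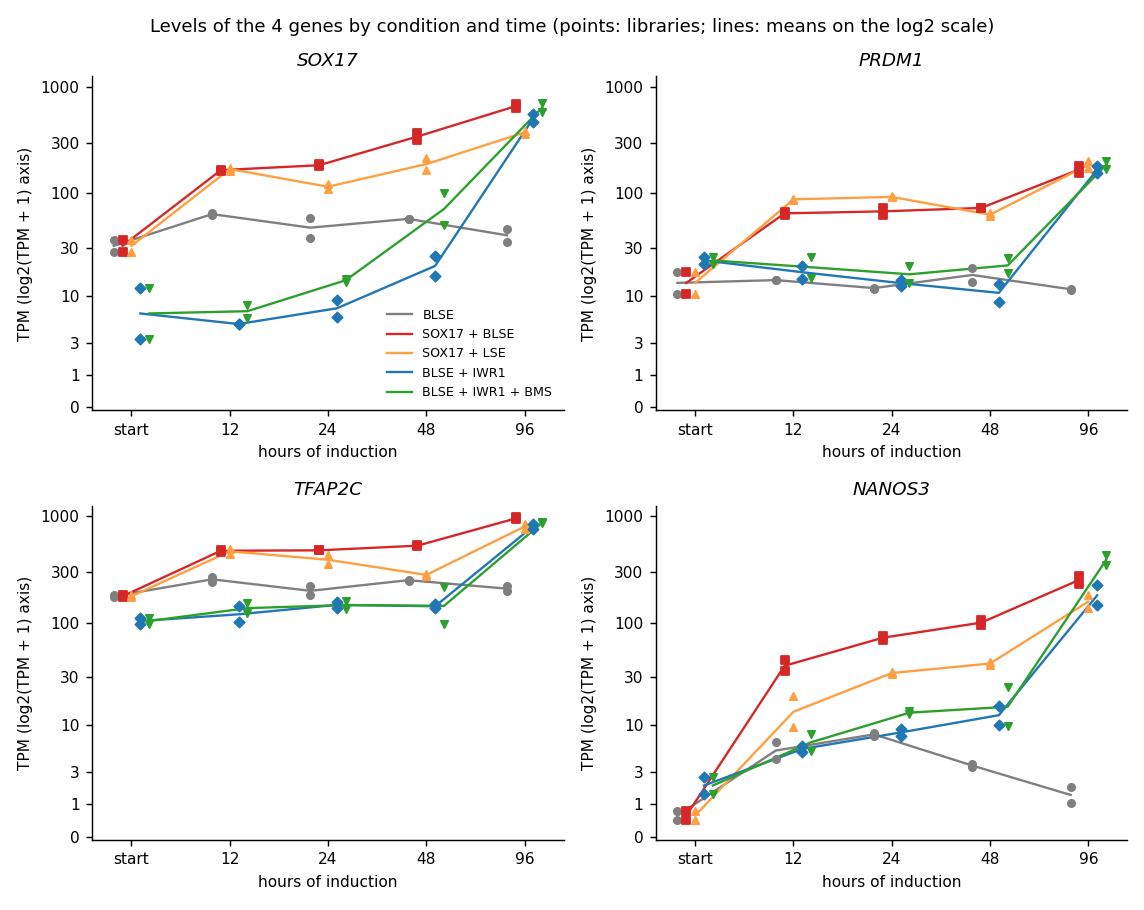
Expression of SOX17, PRDM1, TFAP2C and NANOS3 by hours of induction in 5 routes (one panel a gene; vertical axis TPM on a log2(TPM + 1) scale; points are libraries and lines join the means of 2). The SOX17 routes are above the others at 12 h for each gene, and the BLSE + IWR1 routes, which begin at the pre-treated cells, climb between 48 and 96 h.

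The make-up of the quartet shifted from mostly TFAP2C to a mixture. TFAP2C made up 79.2% and 79.4% of the summed TPM of the 4 genes in cjESCs in DK20FA, and 78.7% and 80.5% in PESFA. At day 6 its share was 38.5% and 36.4%, with SOX17 at 30.8% and 31.1%, NANOS3 at 19.7% and 21.4% and PRDM1 at 11.0% and 11.1%. By day 70 TFAP2C again held the larger part, at 53.0% and 52.4%, and NANOS3 had gone to 10.7% and 9.07%.

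**Figure D2:**
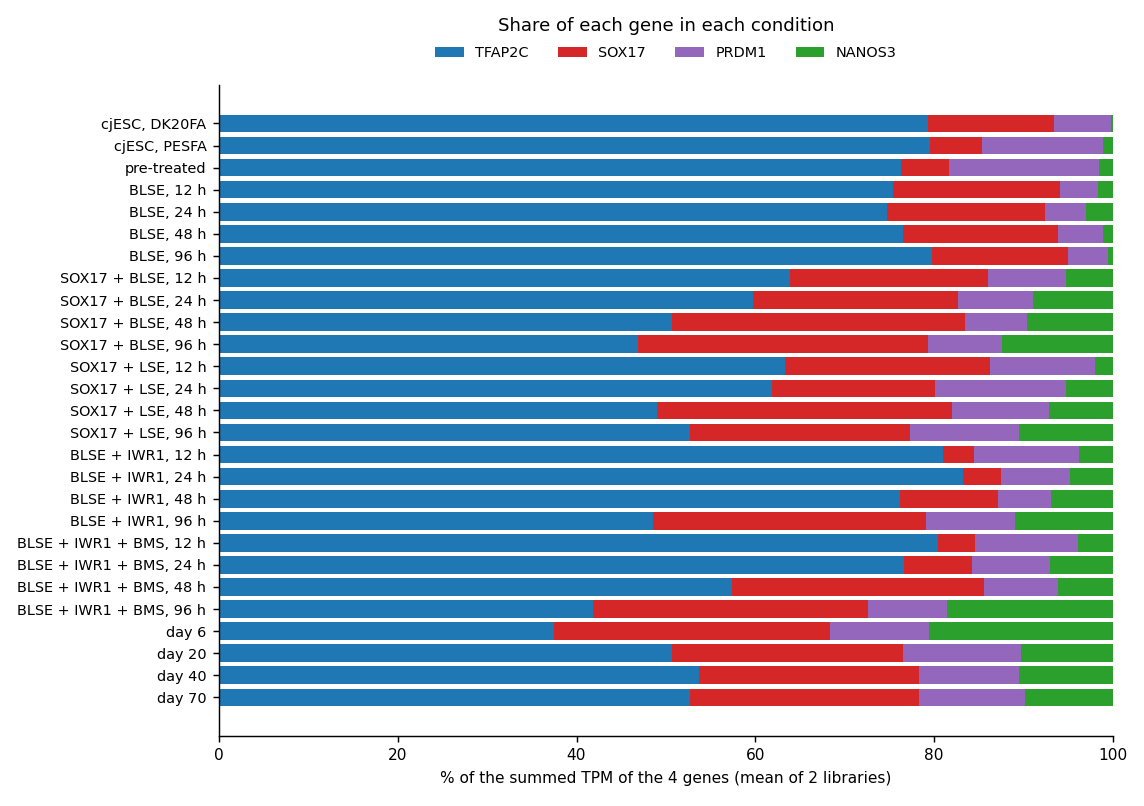
Share of SOX17, PRDM1, TFAP2C and NANOS3 in their summed TPM, in percent, for each of the 27 conditions (stacked bars, means of 2 libraries). TFAP2C fills about 79% of the bar in cjESCs and 37% at day 6, where SOX17 and NANOS3 take up about 31% and 21%.

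Before induction, NANOS3 was near 0 and TFAP2C was well expressed in every starting state. SOX17 measured 27.6 and 36.2 TPM in cjESCs in DK20FA, 7.22 and 7.49 in PESFA, and 12.1 and 3.38 after pre-treatment. TFAP2C measured 174 and 182 in DK20FA, 107 and 96.0 in PESFA, and 111 and 97.5 after pre-treatment. Both genes were higher in DK20FA than in PESFA, with no overlap, and the pre-treated SOX17 libraries were the farthest apart, in ratio, of the starting pairs of that gene. PRDM1 measured 17.6 and 10.5 in DK20FA, 19.9 and 14.9 in PESFA, and 24.5 and 21.2 after pre-treatment. NANOS3 stayed at or below 2.58 in these 6 libraries.

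The differences were tested with limma on log2(TPM + 1), with p adjusted over all 11197 genes, and a log2 difference on this scale understates the change of low genes. Its standard error between any 2 conditions was 0.29 for SOX17 and NANOS3, 0.21 for PRDM1 and 0.18 for TFAP2C. From DK20FA to PESFA, 2 of the 4 genes were called, where 26.8% of all genes were. SOX17 was lower by 1.96 (difference -1.96, adjusted p = 2.12e-06) and TFAP2C by 0.80 (-0.80, adjusted p = 0.00105). The DK20FA cjESCs were counted with the transgenic line and the PESFA cells among the 14 conditions without transgenes. Line and medium may thus have changed together, and the part of transgene reads in these 2 differences was not tested. Of 9 genes of mesendoderm, the layer that forms under WNT and NODAL signals, 6 were also lower in PESFA (15.2% of all genes), among them MIXL1 (22.1 against 339 TPM) and TBXT. Collagen genes of fibroblasts moved the other way, with COL1A1 at 1598 and 878 TPM in PESFA, 1385 and 2715 after pre-treatment and 41.8 and 83.6 in DK20FA, and the part of feeder RNA in the result was not tested. Pre-treatment itself called 0 of the 4 genes by limma against 1.13% of all genes, and 0 at an unadjusted p under 0.05.

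In BLSE alone NANOS3 was above its starting level from 12 to 48 h, with its highest values at 24 h, and PRDM1 was not called at any time. NANOS3 in BLSE measured 6.67 and 4.34 TPM at 12 h, 7.78 and 8.39 at 24 h, 3.82 and 3.44 at 48 h, and 1.94 and 1.05 at 96 h, against 0.42 and 0.74 at the start. SOX17 measured 64.6 and 62.7, then 58.9 and 37.8, then 57.6 and 57.1, and 34.6 and 46.0 at 96 h. Every BLSE library of 12 to 48 h was above both starting libraries for these 2 genes, and the 96 h libraries of SOX17 overlapped them. PRDM1 stayed between 11.6 and 19.2 in the 8 BLSE libraries. TFAP2C measured 270.0 and 245 at 12 h, 221 and 181 at 24 h, 249.6 and 255 at 48 h, and 199 and 221 at 96 h.

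In the test against the starting cjESCs, NANOS3 rose by 2.03 at 12 h (adjusted p = 6.1e-06), 2.53 at 24 h (4.79e-08) and 1.56 at 48 h (7.78e-05). At 12 h SOX17 rose by 0.99 (adjusted p = 0.0169) and TFAP2C by 0.53 (0.0486), so that 3 of 4 genes were called where 14.1% of all genes were. At 24 h NANOS3 was the 1 gene called of 4 (19.5% of all), and at 48 h 3 of 4 were again called (28.8% of all), with SOX17 at 0.84 and TFAP2C at 0.50. At 96 h limma called 0 of 4 (39.2% of all), and NANOS3 alone had an unadjusted p under 0.05, at 0.64 ± 0.29 (SE; adjusted p = 0.0828). PRDM1 lay between -0.20 and 0.25 at all 4 times. Leaving out 1 library ended the SOX17 call at 12 h (DK20FA replicate 1 or either 12 h library, 0.80 to 1.01) and at 48 h (DK20FA replicate 1 or either 48 h library, 0.65 to 0.85). It also ended both TFAP2C calls, whichever of the 4 libraries was left out (0.46 to 0.60 at 12 h and 0.47 to 0.54 at 48 h).

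**Figure D3:**
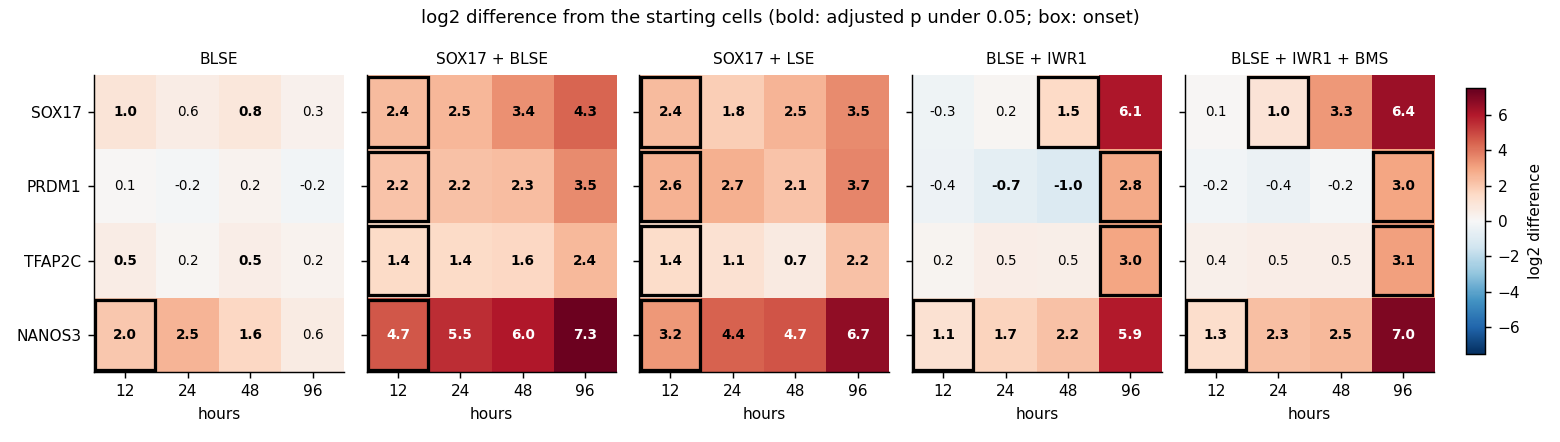
Log2 differences of TPM + 1 from the starting cells for SOX17, PRDM1, TFAP2C and NANOS3 in 5 routes at 12, 24, 48 and 96 h (colour and number, bold where the adjusted p was under 0.05, boxed at the first time with a called rise of at least 1). In the SOX17 routes all boxes are at 12 h. In the BLSE + IWR1 routes NANOS3 is boxed first and PRDM1 and TFAP2C last, at 96 h, where the cells were sorted for BT.

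With SOX17 activated in BLSE, all 4 genes were up at the first time point and rose to their 96 h level. SOX17 itself measured 164 and 168 TPM at 12 h, 180.2 and 189 at 24 h, 368 and 322 at 48 h, and 692 and 636 at 96 h. These reads may hold transgene as well as marmoset SOX17. PRDM1 measured 67.4 and 62.1, then 72.8 and 62.7, then 73.4 and 72.3, and 183 and 155 in the sorted cells of 96 h. TFAP2C measured 464 and 489.6, then 481 and 482, then 525 and 539.8, and 981 and 938. NANOS3 measured 43.9 and 34.4 at 12 h, 75.6 and 68.7 at 24 h, 106 and 94.6 at 48 h, and 276 and 234 at 96 h. PRDM1 and TFAP2C lay close together from 12 to 48 h, both NANOS3 libraries of each time were above those of the time before, and no library of these 4 times overlapped the starting cells for any of the genes.

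Against the starting cells, NANOS3 rose by 4.67 at 12 h (adjusted p = 6.13e-14) and 7.34 at 96 h (4.16e-21). SOX17 rose by 2.36 at 12 h (1.46e-07) and 4.35 at 96 h (3.59e-15). PRDM1 rose by 2.16 at 12 h (1.29e-09) and 3.53 at 96 h. TFAP2C rose by 1.42 at 12 h (4.4e-07) and 2.42 at 96 h, and so fell short of 4-fold until 96 h. All 4 genes were called at each time, where 16.3%, 26.0%, 36.1% and 53.5% of all genes were called at 12, 24, 48 and 96 h. From 48 to 96 h the 4 genes rose by 0.95 (SOX17), 1.20 (PRDM1), 0.85 (TFAP2C) and 1.33 (NANOS3), with 34.8% of all genes called. The SOX17 call of that step was lost without replicate 2 of 48 h (0.85) or replicate 1 of 96 h (0.89).

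Set against BLSE at the same hour, SOX17 + BLSE was higher for all 4 genes at all 4 times. At 12 h, when both arms were unsorted, PRDM1 was higher by 2.08 (adjusted p = 1.26e-08), NANOS3 by 2.64 (1.11e-07), SOX17 by 1.37 (0.00227) and TFAP2C by 0.89 (0.0019), while 4.35% of all genes were called. The differences at 48 h were 4.45 for NANOS3, 2.56 for SOX17, 2.09 for PRDM1 and 1.07 for TFAP2C, with 13.5% of all genes called at 24 h and 25.2% at 48 h. At 96 h sorted cells were compared with unsorted ones, and 55.6% of all genes were called. Dexamethasone was given in 1 arm only, and of 8 measured targets of the glucocorticoid receptor 1 was higher and 0 lower at 12 h, and 4 were higher and 1 lower at 48 h (2.82% and 15.7% of all genes higher). Its part in the result was not tested.

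With SOX17 activated and BMP4 left out, the 4 genes were again up at 12 h, and NANOS3 was lower than with BMP4 up to 48 h. NANOS3 in SOX17 + LSE measured 9.56 and 19.7 TPM at 12 h, 32.6 and 33.7 at 24 h, 42.2 and 39.6 at 48 h, and 137 and 183 at 96 h. At each of the 4 times both libraries were below both SOX17 + BLSE libraries. PRDM1 measured 88.5 and 87.5, then 91.7 and 93.6, then 60.7 and 65.1, and 201 and 172. Here PRDM1 was above SOX17 + BLSE at 12 and 24 h and below it at 48 h, with no overlap at these times, and the groups overlapped at 96 h.

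SOX17 in SOX17 + LSE measured 165 and 175 at 12 h, 109.8 and 122 at 24 h, 216 and 166 at 48 h, and 386 and 366 at 96 h. TFAP2C measured 449 and 494, then 356 and 433, then 276 and 289, and 859 and 756. Both genes overlapped SOX17 + BLSE at 12 h and lay below it from 24 h on. Against the starting cells all 4 genes were called at every time, where 15.1%, 18.9%, 21.6% and 45.0% of all genes were. At 12 h NANOS3 rose by 3.23 (adjusted p = 4.51e-10), PRDM1 by 2.60 (3.74e-11), SOX17 by 2.39 (1.9e-07) and TFAP2C by 1.40 (9.34e-07). The smallest rise was that of TFAP2C at 48 h, at 0.66 (0.0073), which was no longer called without DK20FA replicate 1 or SOX17 + LSE 48 h replicate 2 (0.63 in either case). NANOS3 was the 1 gene to step up from 12 to 24 h, by 1.21 (adjusted p = 0.0232, 1.78% of all genes called), and the 4 genes rose again from 48 to 96 h (29.5% of all called), NANOS3 by 1.93, PRDM1 by 1.55, TFAP2C by 1.51 and SOX17 by 0.99. The NANOS3 step was lost without replicate 1 of 12 h or either library of 24 h (0.72 to 1.23), and with a pseudocount of 0.1 (adjusted p = 0.0648), median-ratio (0.0573) or quantile scaling (0.0732), and the SOX17 step without replicate 2 of 48 h (0.80) or replicate 1 of 96 h (0.95).

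The test of BMP4 itself, SOX17 + BLSE minus SOX17 + LSE, called NANOS3 first. At 12 h NANOS3 was higher with BMP4 by 1.43 (adjusted p = 0.00876), the 1 of 4 genes called where 0.473% of all were. At 24 h it was higher by 1.1 (0.0196, with 1 of 4 and 4.87% of all genes called) and at 48 h by 1.27 (0.00218). At 48 h SOX17 (0.86, adjusted p = 0.0407) and TFAP2C (0.91, 0.000461) were also higher, so 3 of 4 genes were called where 13.3% of all were. At 96 h limma called 0 of 4 (12.8% of all), with 2 of 4 at an unadjusted p under 0.05. NANOS3 then differed by 0.68 (95% interval 0.08 to 1.28, adjusted p = 0.131) and SOX17 by 0.82 (0.23 to 1.40, 0.0544), which was called with quantile scaling (0.91, 0.042). PRDM1 was called at 0 of the 4 times by limma and had an unadjusted p under 0.05 at 2, with differences of -0.44 (-0.87 to -0.01), -0.45 (-0.88 to -0.02), 0.21 (-0.22 to 0.64) and -0.14 (-0.57 to 0.29) at 12, 24, 48 and 96 h. The NANOS3 call at 12 h was lost without replicate 1 of SOX17 + BLSE (1.26) or of SOX17 + LSE (0.95), and that at 24 h without any 1 of the 4 libraries (1.03 to 1.17). The SOX17 call at 48 h was likewise lost without any 1 of 4 (0.67 to 1.05).

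**Figure D4:**
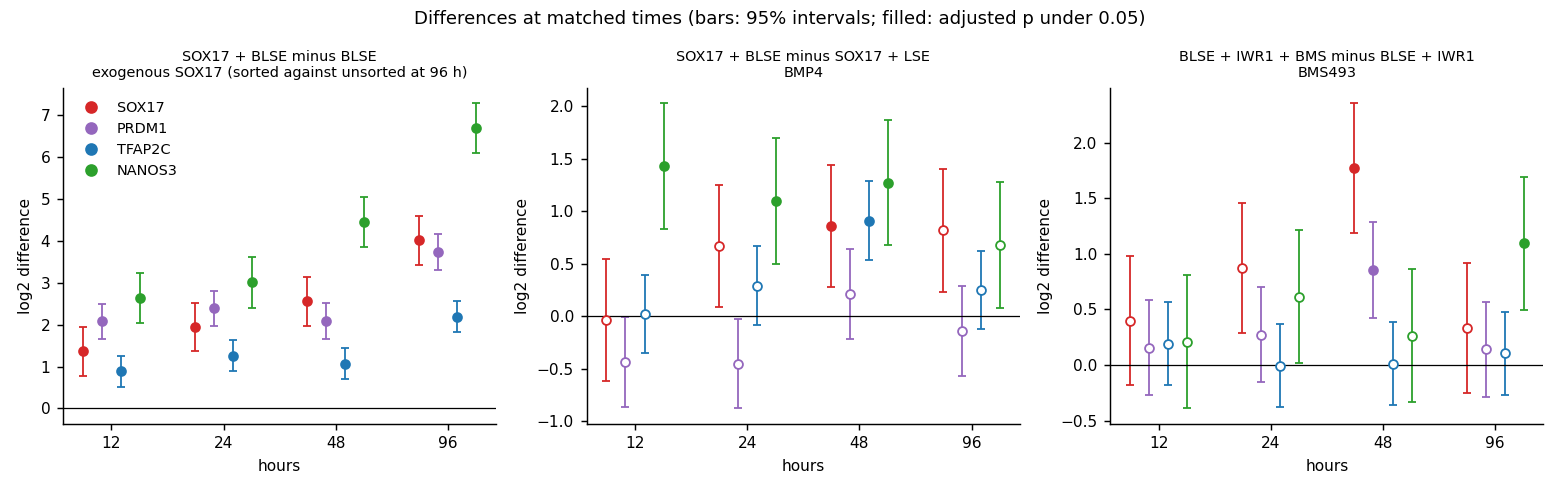
Differences of log2(TPM + 1) at the same hour for 3 pairs of routes, with 95% intervals (filled points passed an adjusted p of 0.05). The SOX17 + BLSE minus BLSE panel is above 0 for all 4 genes at all times, NANOS3 leads the panel for BMP4 at 12 and 24 h, and SOX17 leads the panel for BMS493 at 48 h.

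In the route without transgenes, BLSE + IWR1, the genes stayed low for 48 h and were high at 96 h. SOX17 measured 4.97 and 5.08 TPM at 12 h, 9.14 and 6.06 at 24 h, 25.3 and 15.9 at 48 h, and 474 and 555 at 96 h. NANOS3 measured 6.11 and 5.18, then 9.10 and 7.85, then 15.8 and 10.2, and 146 and 225. Both NANOS3 libraries of every time were above both pre-treated libraries (1.53 and 2.58), whereas SOX17 cleared its starting libraries (12.1 and 3.38) at 48 h. PRDM1 measured 20.2 and 15.0, then 12.8 and 14.5, then 8.74 and 13.3, and 156 and 181 in the sorted cells. TFAP2C measured 143 and 101, then 157 and 139, then 137 and 150, and 771 and 859. PRDM1 thus lay below its starting libraries (24.5 and 21.2) at 12, 24 and 48 h, with no overlap.

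Against the pre-treated cells, NANOS3 rose by 1.14 at 12 h (adjusted p = 0.00717), 1.65 at 24 h (7.43e-05) and 2.19 at 48 h (3.27e-07). SOX17 was at -0.33 and 0.16 at 12 and 24 h and rose by 1.48 at 48 h (0.000125). PRDM1 fell by 0.71 at 24 h (0.017) and by 1.01 at 48 h (0.000319). TFAP2C was at 0.50 and 0.46 at 24 and 48 h, with adjusted p = 0.0561 at both. Of the 4 genes 1, 2, 3 and 4 were called at 12, 24, 48 and 96 h, where 11.5%, 16.4%, 29.7% and 51.2% of all genes were. At 96 h SOX17 had risen by 6.09 (6.14e-19), NANOS3 by 5.92 (2.68e-18), TFAP2C by 2.96 (9.5e-16) and PRDM1 by 2.83 (1.24e-13).

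Much of each rise fell between the unsorted cells of 48 h and the sorted ones of 96 h. That step was 4.61 for SOX17, 3.84 for PRDM1, 3.73 for NANOS3 and 2.50 for TFAP2C, with 45.8% of all genes called. Before it, SOX17 alone was called in a step, rising by 1.32 from 24 to 48 h (adjusted p = 0.00434, 4.04% of all genes), and that call was lost without replicate 2 of 24 h (1.06) or replicate 1 of 48 h (1.0).

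Several early calls rested on single libraries. Without pre-treated replicate 2, whose SOX17 value of 3.38 is the low one, SOX17 at 48 h stood at 0.69 (adjusted p = 0.0717). NANOS3 at 12 h stood at 0.89 without pre-treated replicate 1 (0.119) and at 1.04 without 12 h replicate 1 (0.0677). PRDM1 at 24 h stood at -0.61 without pre-treated replicate 1 (0.124) and at -0.62 without 24 h replicate 1 (0.146). The summed level of fibroblast and gonadal genes was 1909 to 3652 TPM in the pre-treated cells and 109 to 158 at 12 h, and its part in these calls was not tested. With the 12 h cells as the start, a comparison chosen after the data were seen, SOX17 rose at 48 h by 1.81, NANOS3 by 1.05 and PRDM1 fell by 0.64, all still called, while the 24 h calls of NANOS3 (0.51, adjusted p = 0.711) and PRDM1 (-0.34, 0.756) were not.

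With BMS493, SOX17 was higher at 48 h and NANOS3 at 96 h than in BLSE + IWR1 alone. SOX17 in BLSE + IWR1 + BMS measured 5.93 and 8.12 TPM at 12 h, 14.01 and 15.0 at 24 h, 50.6 and 100.1 at 48 h, and 718 and 582 at 96 h. NANOS3 measured 8.24 and 5.34, then 13.9 and 13.1, then 9.85 and 24.0, and 434 and 349. PRDM1 measured 24.8 and 15.3, then 20.2 and 13.7, then 17.2 and 24.0, and 203 and 169. TFAP2C measured 154 and 123, then 161 and 134, then 96.5 and 216, and 882 and 870.2. For all 4 genes the second library of 48 h was the higher of the pair, and SOX17 at 24, 48 and 96 h was above both BLSE + IWR1 libraries.

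Those 48 h libraries also stood apart in genes of other lineages. CER1 was at 1089 and 6.25 TPM in replicates 1 and 2, MIXL1 at 361 and 16.4, EOMES at 68.3 and 6.52, TBXT at 269 and 71.2 and GATA6 at 354 and 126. These mesendoderm and endoderm genes, picked after their values were seen, were thus higher in the library where the 4 germ cell genes were lower. The part of these lineages in the 48 h values was not tested. Against the pre-treated cells, TFAP2C at 48 h was at 0.47 (adjusted p = 0.0516), at 1.05 without replicate 1 (1.68e-06) and at -0.11 without replicate 2.

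Against the pre-treated cells NANOS3 rose by 1.35 at 12 h (adjusted p = 0.00149) and 2.27 at 24 h (2.55e-07), and SOX17 by 1.03 at 24 h (0.00831) and 3.25 at 48 h (2.33e-11). Of the 4 genes 1, 2, 2 and 4 were called at 12, 24, 48 and 96 h (10.8%, 19.8%, 28.3% and 48.1% of all genes). At 96 h NANOS3 had risen by 7.02, SOX17 by 6.42, TFAP2C by 3.06 and PRDM1 by 2.97. The step from 24 to 48 h called SOX17 alone, at 2.22 (1.1e-06, 7.24% of all genes), and that from 48 to 96 h called all 4 (41.6% of all), by 3.13 to 4.57 for SOX17, PRDM1 and NANOS3 and by 2.59 for TFAP2C. The SOX17 call at 24 h was lost without pre-treated replicate 2 (0.24, adjusted p = 0.697) or 24 h replicate 2 (0.99, 0.0698), and with the 12 h cells as the start (0.96, 0.126). The NANOS3 call at 12 h was lost without 12 h replicate 1 (1.07, 0.0666).

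The direct comparison of BLSE + IWR1 with and without BMS493 called 0 of 4 genes by limma at 12 h (0.125% of all, 0 unadjusted) and 0 at 24 h (0.438% of all, 2 at an unadjusted p under 0.05). SOX17 at 24 h differed by 0.87 (95% interval 0.29 to 1.46, adjusted p = 0.326). At 48 h SOX17 was higher with BMS493 by 1.77 (7.21e-05) and PRDM1 by 0.85 (0.00641), which made 2 of 4 genes where 11.5% of all were called. At 96 h NANOS3 was higher by 1.1 (0.0342), 1 of 4 where 2.66% of all were. PRDM1 at 48 h was lost without BLSE + IWR1 replicate 1 (0.58) or BMS493 replicate 2 (0.63). NANOS3 at 96 h was lost without BLSE + IWR1 replicate 1 (0.79) or either BMS493 library (0.94 and 1.26).

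The times of onset differed between the routes. Onset was taken as the first time with an adjusted p under 0.05 and a rise of at least 1 on the log2 scale. This rule reads a rise over the starting level in bulk RNA, and that level differed between the genes. In pre-treated cells NANOS3 measured 1.53 and 2.58 TPM and TFAP2C 111 and 97.5. The part of the starting level and of the share of expressing cells in the order was not tested. In SOX17 + BLSE and SOX17 + LSE all 4 genes met it at 12 h, as did 3.86% and 3.26% of all genes, so that no order could be resolved among the 4. In BLSE, NANOS3 alone met it, at 12 h (3.14% of all), with SOX17 just outside at 0.99. In BLSE + IWR1 the order was NANOS3 at 12 h (1.26% of all), SOX17 at 48 h (5.49%), and PRDM1 and TFAP2C at 96 h (12.8%). In BLSE + IWR1 + BMS it was NANOS3 at 12 h (1.75% of all), SOX17 at 24 h (3.67%), and PRDM1 and TFAP2C at 96 h (11.1%). The 96 h cells of these routes were sorted for BT and the earlier cells were not. The PRDM1 onset at 96 h is thus set by the sort and is no separate finding. For TFAP2C, time and sort cannot be told apart at 96 h.

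With a stricter rule of 4-fold and an adjusted p under 0.01, NANOS3 moved to 48 h (2.73% of all genes past it in either direction) and SOX17 to 96 h (6.62%) in BLSE + IWR1. In BLSE + IWR1 + BMS they moved to 24 h (1.91%) and 48 h (3.67%). TFAP2C moved to 96 h in SOX17 + BLSE (7.31%) and SOX17 + LSE (4.99%). In BLSE + IWR1, NANOS3 moved to 24 h without pre-treated replicate 1 or 12 h replicate 1, and SOX17 to 96 h without pre-treated replicate 2. In BLSE + IWR1 + BMS, SOX17 moved to 48 h without pre-treated replicate 2 or 24 h replicate 2, NANOS3 to 24 h without 12 h replicate 1, and TFAP2C to 48 h without 48 h replicate 1. In BLSE, SOX17 met the rule at 12 h without DK20FA replicate 2, with a pseudocount of 0.1 and under median-ratio scaling, which also moved SOX17 in BLSE + IWR1 + BMS to 48 h. A fit of only the groups compared delayed onset in every route. There all 4 genes of BLSE + IWR1 were at 96 h, SOX17 + LSE had SOX17, PRDM1 and NANOS3 at 48 h and TFAP2C at 96 h, and PRDM1 in SOX17 + BLSE was at 24 h. NANOS3 moved to 48 h in BLSE and to 24 h in BLSE + IWR1 + BMS, where SOX17 moved to 48 h. Under the other changes NANOS3 came ahead of PRDM1 and TFAP2C in BLSE + IWR1.

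Set against SOX17 + BLSE, level and rise pointed the same way up to 48 h. At 96 h there were calls for rise and not for level. BLSE + IWR1 was lower than SOX17 + BLSE for all 4 genes at 12, 24 and 48 h (23.1%, 21.6% and 31.3% of all genes called), with SOX17 differing by -4.79, -4.46 and -4.03 and PRDM1 by -1.83, -2.23 and -2.65. TFAP2C differed by -1.98, -1.70 and -1.89 and NANOS3 by -2.59, -2.95 and -2.88. At 96 h, with both arms sorted, limma called 0 of 4 (11.3% of all, 0 unadjusted). The 96 h differences were -0.37 for SOX17 (95% interval -0.95 to 0.21), -0.01 for PRDM1 (-0.44 to 0.42), -0.24 for TFAP2C (-0.61 to 0.14) and -0.48 for NANOS3 (-1.08 to 0.11). Since both arms were sorted for BT, the similar PRDM1 level is no separate finding. The same holds for NANOS3 as far as NG was part of the gate.

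Against BLSE, the same BLSE + IWR1 cells began lower in SOX17, by 3.42 at 12 h (difference -3.42, adjusted p = 2.89e-11), 2.51 at 24 h (-2.51) and 1.47 at 48 h (-1.47). TFAP2C was lower at 12 h (-1.09) and 48 h (-0.81). At 48 h NANOS3 was already higher by 1.57 (7.28e-05) and PRDM1 lower (-0.56, 0.0403), and the PRDM1 call was lost without BLSE replicate 1 (-0.34) or BLSE + IWR1 replicate 1 (-0.28). Of the 4 genes 2, 1, 4 and 4 were called at 12, 24, 48 and 96 h, where 22.1%, 22.2%, 31.6% and 55.2% of all were. At 96 h, sorted against unsorted, BLSE + IWR1 was higher by 6.21 for NANOS3, 3.73 for PRDM1, 3.65 for SOX17 and 1.95 for TFAP2C.

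Measured from its own starting cells instead, the rise in BLSE + IWR1 was smaller than that in SOX17 + BLSE for all 4 genes at 12, 24 and 48 h (interaction contrast, 13.6%, 15.4% and 22.8% of all genes called). At 96 h 2 of 4 genes differed (15.8% of all). SOX17 had then risen more in BLSE + IWR1, by 1.74 (adjusted p = 0.00235), from a start of 12.1 and 3.38 TPM against 27.6 and 36.2. NANOS3 had risen less (-1.42, 0.0161), from 1.53 and 2.58 against 0.42 and 0.74. Single libraries decided both calls. SOX17 stood at 0.95 without pre-treated replicate 2, and NANOS3 at -1.11 without BLSE + IWR1 96 h replicate 1. Against the rise in BLSE, 1, 0, 1 and 4 of the 4 genes differed at 12, 24, 48 and 96 h (11.5%, 12.6%, 20.4% and 44.5% of all), with NANOS3 alone at an unadjusted p under 0.05 at 24 h.

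Sorted cells kept a high level of all 4 genes from 96 h to day 70, with NANOS3 and SOX17 falling most. SOX17 measured 474 and 555 TPM at 96 h, 617 and 708 at day 6, 334 and 408 at day 20, 337 and 309 at day 40, and 256 and 290.0 at day 70. NANOS3 measured 146 and 225 at 96 h, 394 and 487 at day 6, 127 and 169 at day 20, 144 and 132 at day 40, and 110.4 and 99.3 at day 70. Both peaked at day 6, with no overlap between day 6 and any later day. PRDM1 measured 221 and 253 at day 6, 175 and 206 at day 20, 147 and 143 at day 40, and 119.6 and 131 at day 70. TFAP2C measured 770.1 and 829, then 730.2 and 722, then 691 and 713, and 549 and 574. For these 2 genes, too, the libraries of day 6 lay above those of every later day, and PRDM1 is the gene whose reporter the labels name for the sort.

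From 96 h to day 6 NANOS3 rose by 1.27 (adjusted p = 0.00596), the 1 of 4 genes called where 5.84% of all were. PRDM1 differed by 0.49 (95% interval 0.06 to 0.92, adjusted p = 0.187). From day 6 to day 20, across the transfer to the reconstituted ovary, NANOS3 fell by 1.57 (6.91e-05) and SOX17 by 0.84 (0.0244), 2 of 4 genes where 29.7% of all were called. PRDM1 (-0.32, interval -0.75 to 0.11) and TFAP2C (-0.14, -0.51 to 0.23) were not called. Between day 20 and day 40 and between day 40 and day 70 limma called 0 of 4 genes (9.00% and 5.05% of all), with 0 at an unadjusted p under 0.05. Over the whole span from day 6 to day 70 all 4 were lower (41.3% of all called, 30.5% lower): NANOS3 fell by 2.05 (3.89e-07), SOX17 by 1.27 (0.000413), PRDM1 by 0.91 (0.000565) and TFAP2C by 0.51 (0.0242).

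The TFAP2C fall was at -0.23 (adjusted p = 0.329) under median-ratio scaling and -0.34 (0.137) under quantile scaling, and it was lost without any 1 of the 4 libraries (-0.46 to -0.56). The NANOS3 rise to day 6 was lost without 96 h replicate 1 (0.96, 0.112) or day 6 replicate 2 (1.12, 0.1). The SOX17 fall to day 20 was lost without day 6 replicate 1 or 2, or without day 20 replicate 1 (-0.69 to -0.94).

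**Figure D5:**
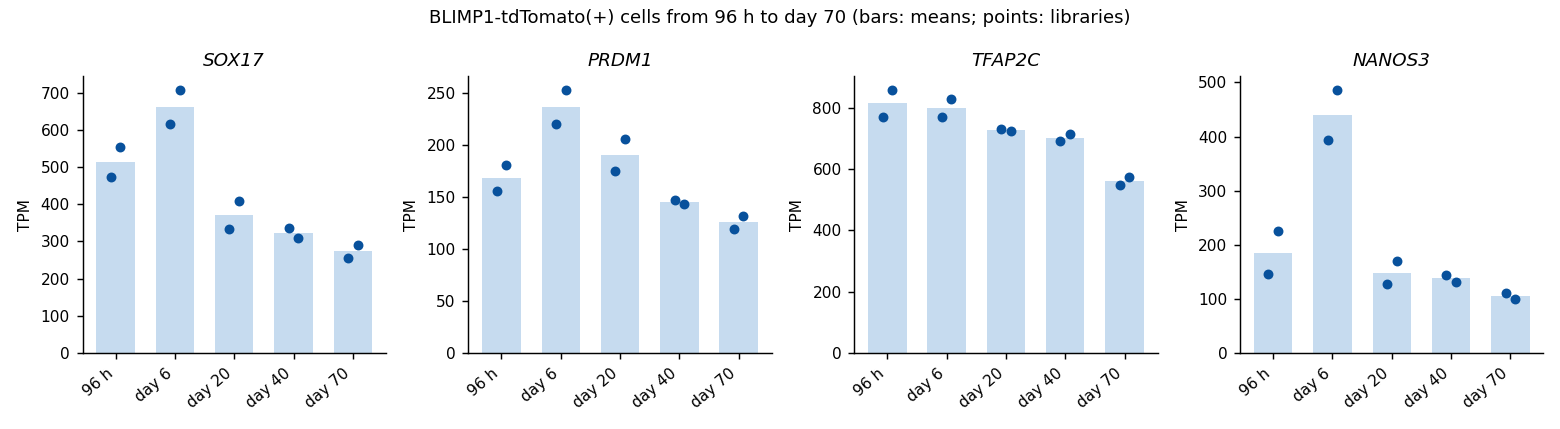
Expression of SOX17, PRDM1, TFAP2C and NANOS3 in sorted BLSE + IWR1 cells at 96 h and days 6, 20, 40 and 70 (bars, means of 2 libraries from 0 TPM; points, libraries; one panel a gene). NANOS3 peaks at 440.3 TPM at day 6 and is at 105 by day 70, and TFAP2C keeps 561 TPM at day 70.

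The rest of the germ cell programme was read from gene lists, described by counts and medians beside the same over all genes tested. Of 20 further genes of the germ cell specification network, SOX17 + BLSE was higher than BLSE for 7, 12, 13 and 15 at 12, 24, 48 and 96 h, and lower for 0, 0, 1 and 2. Of all genes 2.82%, 9.65%, 15.7% and 36.1% were higher at these times. The median difference of the list went from 0.44 at 12 h to 2.31 at 96 h, against 0.05 and 0.24 over all genes. In BLSE at 48 h 13 of these 20 were lower than in the starting cells and 1 was higher (14.8% of all genes lower, list median -0.89 against -0.01 over all), and NANOG, a pluripotency factor that germ cells keep, was at 27.1 TPM against 628. In BLSE + IWR1 the same list was mixed at 96 h, with 8 of 20 genes higher and 7 lower than in pre-treated cells, where 29.9% of all genes were higher and 21.3% lower. Its median difference was 0.10 against 0.14 over all genes. Among the 8 higher genes, the largest rises included DND1, an RNA-binding protein of germ cells, at 379 against 49.5 TPM, and TCL1B at 139.7 against 2.36. They do not stand for the list, in which 7 genes were lower.

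BMP targets and amnion-linked factors were higher with BMP4. SOX17 + BLSE was higher than SOX17 + LSE for 8, 10, 11 and 5 of 11 such genes at 12, 24, 48 and 96 h, and lower for 0, while 0.420%, 2.56%, 7.18% and 5.0% of all genes were higher. The list's median difference went from 1.71 at 12 h to 0.55 at 96 h, against 0.005 and -0.02 over all genes. In BLSE + IWR1, 9 of 11 were above the pre-treated cells at 12 h and 11 of 11 at 24, 48 and 96 h (4.23%, 8.45%, 16.1% and 29.9% of all genes), with list medians of 1.71 to 2.93 against 0.02 to 0.14. With BMS493, 7 of 11 were higher at 96 h (1.27% of all genes, list median 0.72 against -0.06), among them GATA3, an amnion and trophoblast factor, at 178.5 against 60.2 TPM. From day 6 to day 20, 10 of 11 fell (19.2% of all genes, list median -2.17 against -0.08), GATA3 from 84.2 to 0.375 TPM and GATA2 from 97.2 to 1.77, over the interval in which NANOS3 and SOX17 fell.

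Endoderm is a lineage that also uses SOX17. Of 12 endoderm genes 0, 0, 2 and 6 were lower in SOX17 + BLSE than in SOX17 + LSE at 12, 24, 48 and 96 h, and 0 were higher. At 96 h 7.83% of all genes were lower, and the list's median was -0.72 against -0.02 over all genes, with FOXA2, a pioneer factor of endoderm, at 6.94 against 48.4 TPM and the plasma protein gene TTR at 1.20 against 16.2. Of 9 mesendoderm genes 6 were lower with BMP4 at 48 h (6.14% of all genes, list median -2.11 against 0.001), MIXL1 at 7.20 against 199. Over time the list was mixed, with 0, 2, 6 and 3 lower and 0, 1, 0 and 0 higher at the 4 times. Its summed level at 96 h was higher with BMP4 (431 to 496 TPM) than without it (351 to 420.4). The endoderm transcripts of the sorted 96 h cells were thus more abundant in SOX17 + LSE, where SOX17 stood at 386 and 366 TPM, and their part in its level was not tested. The mesoderm and epithelial-mesenchymal transition list had 12 of 12 genes lower in SOX17 + BLSE than in unsorted BLSE at 96 h and 0 higher (19.5% of all genes lower, list median -3.51 against 0.24). At 48 h 7 of those 12 were higher with BMS493 than without it (6.87% of all genes, list median 0.96 against 0.03).

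Later germ cell genes rose from day 6 to day 70. Of 12 such genes, 5 were higher at day 20 than at day 6 and 11 at day 70, where 10.4% and 10.8% of all genes were. Their median difference at day 70 was 2.03, against -0.20 over all genes. DAZL, an RNA-binding protein of gonadal germ cells, was listed at 0 at day 6 and had a mean of 52.9 TPM at day 70. MAEL, which acts in transposon silencing, went from 7.07 to 70.9 and MOV10L1 from 5.84 to 61.9. Paralogs of the 4 genes, 10 in number after filtering, had a median difference of -0.21 from day 6 to day 70, close to that over all genes. SOX2 was at 191 and 200.4 TPM in DK20FA and at or below 2.42 in each sorted library of 96 h and later, where SOX17 was high. From day 6 to day 20, 6 of 11 amnion and trophoblast genes were lower (19.2% of all genes, list median -0.96 against -0.08). At 12 h 2 of 7 neural genes were lower in SOX17 + BLSE than in BLSE (1.53% of all genes, list median -0.13 against 0.05).

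Genes with profiles most like the 4 were ranked by Pearson's r of the mean log2(TPM + 1) over the 27 conditions, as a description. TFAP2C came first for SOX17 (0.956), followed by ACTR10 (0.934), SUSD6, ACVR1B and TAF7. For TFAP2C the first 5 were SOX17, ACTR10, TAF7, FAM8A1 and ARHGAP42. ARHGAP42 came first for PRDM1 (0.963), ahead of AMIGO1, PI4K2A, PNPLA3 and MSC, and ADAMTS17 for NANOS3 (0.966), ahead of CAMK2N1, GPATCH3, LINS1 and RTN4RL1. Over the 14 conditions without transgenes the lists changed, and 3 of the 20 names were shared. The conditions share lines, media and the sort, so these profiles are not independent points.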

How the data were processed

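RNA-seq of 54 marmoset libraries (27 conditions, 2 each) was analysed. The authors mapped single-end directional reads to a marmoset assembly with STAR, dropped those mapped with a quality of 1 or less, and quantified genes with RSEM. The deposited values are TPM for genes shared by marmoset and human. Raw counts were not analysed, so depth per library is unknown and no count model was run. From the deposited TPM, log2(TPM + 1) was fitted with limma 3.58.1 in R 4.3.3, with a mean for each of 27 groups (27 residual degrees of freedom) and eBayes with a trend. Genes with a value of at least 1.5 on this scale in at least 1 library were kept, and p-values were adjusted by Benjamini-Hochberg over 11197 genes. A gene was called at an adjusted p under 0.05. Replicates were numbered in the labels. An exact permutation test of 2 against 2 cannot go below p = 0.33 and was not used. On simulated data for SOX17 + BLSE at 12 h (11197 genes), 48 of 67 genes changed 2-fold, 67 of 67 changed 4-fold and 66 of 66 changed 8-fold were recovered, with 4 of 10997 unchanged genes called. The changed genes were drawn only from those with higher mean levels, so this recovery does not cover genes at low levels.

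The 4 genes and the gene lists were chosen with earlier results of these data known. The genes named were the 4 in every comparison, at most 4 called genes of a list with the largest difference in a comparison, or its defining markers, and the 5 most similar profiles, leaving out genes without a proper symbol. CER1, MIXL1, EOMES, TBXT and GATA6 in the BMS493 libraries of 48 h were chosen after their values were seen. Alternatives were another pseudocount, no filter, fits of only the groups compared, a replicate block, median-ratio and quantile scaling, no trend, a 4-fold rule, leaving out each library, and the 12 h cells as the start, added after the data were seen.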

Additional observations from a re-analysis of the deposited data

Results flagged for a closer look

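Routes were compared in how far each gene moved from its own starting cells, and 20 of 32 such differences between the rise in BLSE + IWR1 and the rise in a transgene route passed the adjusted p (limma, interaction contrast). They are given as values, and line, medium and pre-treatment changed together between the routes. Per comparison, 11.5% to 44.5% of all genes passed. Against SOX17 + BLSE, the rise in BLSE + IWR1 was smaller at 12 h for SOX17 (-2.69), PRDM1 (-2.53), TFAP2C (-1.21) and NANOS3 (-3.53), 4 of 4 genes where 13.6% of all were called. At 24 h the differences were -2.35, -2.93, -0.93 and -3.89 in the same order (15.4% of all), and at 48 h -1.92, -3.34, -1.12 and -3.82 (22.8% of all). At 96 h SOX17 had risen more in BLSE + IWR1, by 1.74 (adjusted p = 0.00235), and NANOS3 less, at -1.42 (0.0161), 2 of 4 where 15.8% of all were called.

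Against BLSE, the rise of SOX17 was smaller at 12 h, at -1.32 (adjusted p = 0.0286, 1 of 4 genes and 11.5% of all), and that of PRDM1 at 48 h, at -1.26 (0.00206, 1 of 4 and 20.4% of all). At 24 h limma called 0 of 4 (12.6% of all), with NANOS3 alone at an unadjusted p under 0.05. At 96 h, sorted against unsorted cells, the rise was larger by 5.76 for SOX17, 3.03 for PRDM1, 2.72 for TFAP2C and 5.28 for NANOS3 (44.5% of all). Single libraries decided some calls. Against the rise in SOX17 + BLSE, TFAP2C at 24 h stood at -0.84 without pre-treated replicate 1 or BLSE + IWR1 24 h replicate 2. In that same comparison SOX17 at 96 h stood at 0.95 without pre-treated replicate 2, and none of these remained called. Neither did NANOS3 at 96 h against SOX17 + BLSE (-1.11 to -1.30) without DK20FA replicate 1, pre-treated replicate 2, or replicate 1 of either route at 96 h. SOX17 at 12 h against BLSE was no longer called without DK20FA replicate 1, pre-treated replicate 1 (-0.53) or any 1 of the 4 libraries of 12 h (-1.30 to -1.34).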

How the results depend on the processing

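Of 80 tests against the starting cells 58 were called, of 80 between conditions at matched times 47, of 20 from 96 h to day 70 7, and of 32 differences in rise 20. These counts include PRDM1 in sorted cells, where its level is set by the sort. In the same order, 10.8% to 53.5%, 0.125% to 55.6%, 5.05% to 41.3% and 11.5% to 44.5% of all genes were called per comparison. With only the groups compared in each fit, 2 residual degrees of freedom are left for a pair of conditions. The counts were then 36, 30 and 13 for the first, second and last kind of test and 5 for the third. The other settings gave 55 to 59, 44 to 47, 5 to 7 and 19 to 21. Leaving out 1 library gave 53 to 64, 46 to 50, 4 to 7 and 19 to 20, the 4 arising without day 6 replicate 2. No call changed direction. Of the 20 genes with the most similar profiles, 8 were shared under Spearman's rho and 3 over the 14 conditions without transgenes. Scaling moved the uncalled 96 h difference of PRDM1 between BLSE + IWR1 and SOX17 + BLSE to 0.029 (median-ratio) and 0.0073 (quantile), and leaving out 1 library moved it between -0.12 and 0.11. TFAP2C with BMS493 at 48 h lay at -0.11 to 1.05 when either library was left out.

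A replicate block gave 57, 47, 7 and 20 calls and ended 1, TFAP2C in BLSE at 12 h (adjusted p = 0.0508). Deviations of same-numbered libraries correlated at -0.21 to 0.29 (median 0.025 over 62 comparisons), with 0.18 to 0.29 among the 12 and 24 h cells of the transgenic line. The labels tie no number to a shared culture or day, and the numbers were not taken as pairs. Median-ratio scaling moved the median of all genes by -0.31 (difference in rise against BLSE, 96 h) to 0.25 (day 70 minus day 6). The SOX17 effect of BMP4 at 48 h was not called under 5 other settings (adjusted p = 0.0526 to 0.0839), and the NANOS3 effect of BMS493 at 96 h not under 3 (0.0524 to 0.0933). The SOX17 fall to day 20 was not called without the filter (0.0533) or with quantile scaling (0.0666). NANOS3 in BLSE at 96 h was called with a pseudocount of 0.1 (1.21) or quantile scaling (0.84). Depth is unknown, so values of NANOS3 near 1 TPM have no counting error attached.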
